A study of Mus musculus with 24 samples.

Results

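The comparison described here asks whether AZD5582 changed gene expression differently in 2 kinds of dendritic cell (DC) culture. It is a difference of differences: the change between AZD5582 and its solvent DMSO in one culture type, minus the same change in the other. It rested on 12 of the 24 libraries of the series, 4 groups of 3, chosen by treatment and culture type from the sample titles. FL cultures were mouse bone marrow cells grown to day 16 with FLT3L at 200 ng/ml and GM-CSF at 20 ng/ml, which the series calls cDC1, and then kept for 24 h with 0.05 µM AZD5582 or DMSO. GM cultures were bone marrow cells grown with 20 ng/ml GM-CSF alone to day 8, which the series calls moDCs, and then kept for 24 h with 0.1 µM AZD5582 or DMSO. The 6 libraries taken at the start of treatment (t0) and the GM libraries at 0.5 and 1 µM served for starting levels and higher doses only. Marrow came from C57BL/6JRj mice, wild type or Cas9-EGFP, and the labels give no genotype per library. FL libraries were named for cultures 91, 94 and 95, each with its own DMSO and AZD5582 library. GM libraries were numbered 1 to 3 within a single culture name, 105. The series calls all of them biological replicates, but whether the GM libraries came from separate mice was not stated, so their spread, and p-values built on it, may be technical. Dose, FLT3L and days in culture changed together with culture type and cannot be told apart in any difference below.

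AZD5582 is a dimeric SMAC mimetic, a compound that binds the inhibitor of apoptosis proteins (IAPs) and leads to loss of cIAP1 and cIAP2. These ligases normally keep the kinase NIK at a low level, and without them NIK accumulates and drives processing of p100 to p52, the non-canonical NF-kB pathway that CD40 also uses. Conventional type 1 DCs carry XCR1, CLEC9A and CADM1 and are specialised in presenting antigen from dead cells to CD8 T cells, whereas cells grown with GM-CSF alone include many of monocyte and macrophage type.

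The labelled cell types were checked against marker genes. Levels are CPM, gene counts scaled to a common library total, after TMM scaling. Xcr1 stood at 385, 106 and 148 CPM in FL cultures 91, 94 and 95 at t0 and at 0.105, 0.166 and 0.147 CPM in the 3 GM libraries. After 24 h with DMSO it stood at 7.8, 15.5 and 26.5 CPM in FL and 0, 0.0251 and 0 CPM in GM cultures. Clec9a stood at 35.1, 46.7 and 74.7 CPM in FL and 0.254, 0.476 and 0.752 CPM in GM cultures with DMSO. Xcr1 and Clec9a were thus near 0 in GM cultures, but other cDC1 markers were not. With DMSO, Wdfy4 had means of 127 CPM in FL and 139 CPM in GM cultures, and Tlr3 of 10.3 and 10.1 CPM. All 28 cDC1 markers tested summed to 4693, 3464 and 4278 CPM in FL and 2983, 3194 and 3136 CPM in GM cultures with DMSO. At t0 they summed to 13094, 6679 and 7656 CPM in FL and 3710, 3724 and 3613 CPM in GM cultures. The summed CPM of 32 monocyte and macrophage markers was 39866 to 46729 in GM cultures and 2442 to 4340 in FL cultures with DMSO. Markers of other cells were also counted in FL cultures: 22 neutrophil markers summed to 2323, 10957 and 4547 CPM in cultures 91, 94 and 95 with DMSO, against 951 to 1167 in GM cultures, and 17 tested mast cell, basophil and eosinophil markers summed to 899, 3971 and 1976 CPM, against 387 to 416. In bulk RNA, fewer cells of a type and less RNA per cell cannot be told apart.

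Each library held 27 to 84 M gene counts. FL culture 91 stood apart: on the second principal component (25.2% of the variance) its DMSO library lay at -24.9, against 107 and 79.0 for cultures 94 and 95, and its AZD5582 library at -90.5, below all others. Counts that depend on this culture are given with and without it.

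Most of the response was shared. Of 16097 genes tested, 4940 (30.7%) were called in FL cultures (2127 up, 13.2%, and 2813 down, 17.5%) and 5730 (35.6%) in GM cultures (2888 up, 17.9%, and 2842 down, 17.7%), where called means an adjusted p under 0.05 in edgeR's quasi-likelihood test. There were 3212 genes called in both culture types, which is 65.0% of the FL calls and 56.1% of the GM calls, and 3094 of these (96.3%) moved the same way. Across genes, which are not independent replicates, the log2 fold changes of the 2 culture types had Pearson's r = 0.58 over all genes tested and 0.76 over the 9354 genes that reached 10 CPM in a group. Cd40 is an example of this common part. Signalling genes of its pathway did not all share it: among 20 NIK, IKK and TRAF signalling genes, the FL response was called above the GM response in 3 and below it in 2. Cd40, the receptor for CD40 ligand, stood at 228, 68.6 and 85.8 CPM with DMSO and 695, 336 and 460.1 CPM with AZD5582 in FL cultures, and at 50.8, 76.1 and 64.4 CPM with DMSO and 280.4, 236 and 246 CPM with AZD5582 in GM cultures. It rose in both, by log2 2.09 ± 0.18 (SE) and 2.06 ± 0.18, with a difference of 0.03 (95% interval -0.50 to 0.55).

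Against this common response, the difference between the culture types was called for 1011 genes (6.28%). The FL response lay above the GM response for 415 (2.58%) and below it for 596 (3.7%). These shares of all genes tested are the base for the counts in gene lists below. At an unadjusted p under 0.05 there were 3558. This number rests on pairing each FL library with AZD5582 to the DMSO library of its own culture: a model without the pairing called 17 genes, 11 above and 6 below, all of them among the 1011. The split by direction also moved. Without FL culture 91 there were 639 above and 401 below, and with all 24 libraries in the model 463 and 295. Leaving out 1 of the 3 GM libraries with AZD5582 put 54.2% to 56.7% of the calls above. Leaving out DMSO library 1 of the GM cultures gave the fewest calls of any library, 182 above and 275 below.

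**Figure D1:**
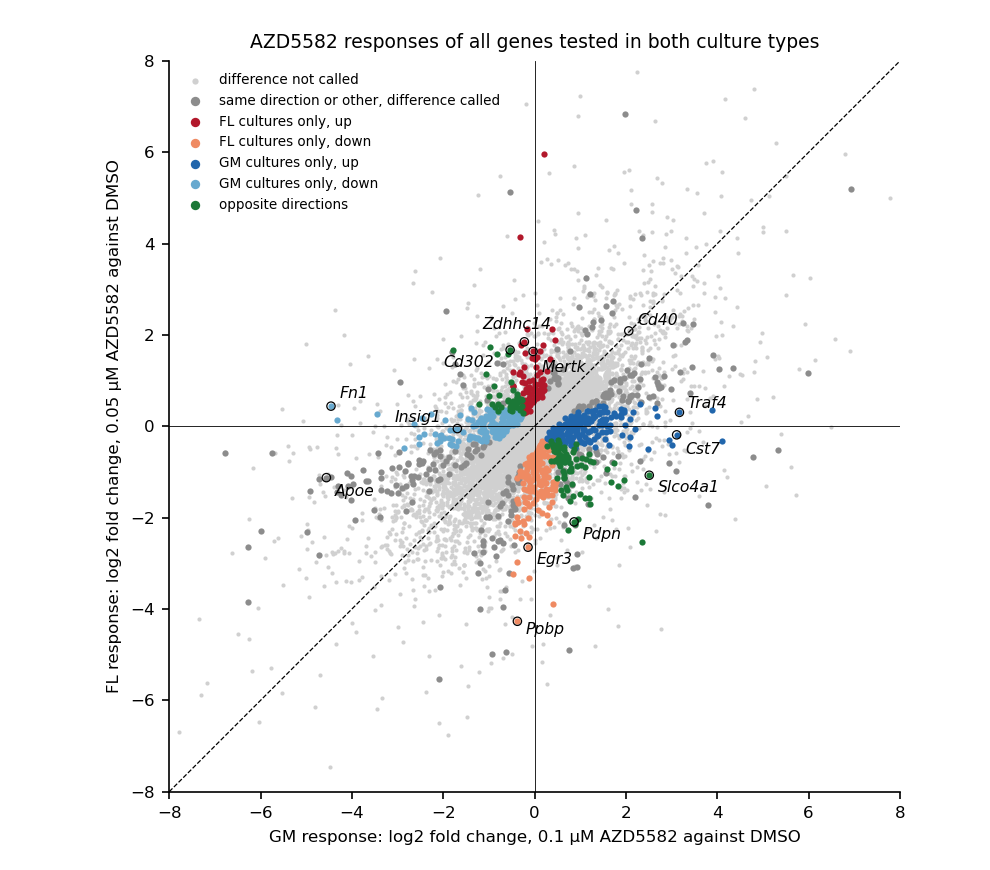
Log2 fold change with AZD5582 in GM cultures (x axis, 0.1 µM against DMSO) and FL cultures (y axis, 0.05 µM against DMSO) for 16097 genes, 4 of which lie outside the axes. Colours give the kind of response. Genes on the dashed diagonal, such as Cd40, changed equally, and genes near an axis, such as Fn1 (0.44 in FL, -4.46 in GM) or Ppbp (-4.27 in FL, -0.38 in GM), changed in one culture type.

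A gene that passes the test in one culture type and misses it in the other has not been shown to differ. There were 1728 genes called in FL and not in GM cultures, and the difference itself was called for 291 of them. Of 2518 genes called in GM and not in FL cultures, it was called for 398. One-culture responders are therefore defined here as genes with the difference called, the response called in one culture type, and a response in the other that was not called and had a log2 estimate within 0.5 of 0. By this definition 262 genes responded in FL cultures only (87 up, 0.54% of genes tested, and 175 down, 1.09%) and 350 in GM cultures only (189 up, 1.17%, and 161 down, 1%). A further 118 genes moved in opposite directions, 40 up in FL and down in GM cultures and 78 the reverse. Another 203 moved the same way, 131 of them more in GM and 72 more in FL cultures, and 78 met none of these definitions. Without FL culture 91 there were 226 FL-only and 317 GM-only responders. Leaving out a GM library gave 123 (DMSO library 1) to 303 (DMSO library 3) FL-only and 133 to 483 GM-only responders from the same libraries.

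Few of the one-culture responders were genes that the other culture type lacked. Of these 612 genes, 16 had a mean under 1 CPM in both groups of the culture type that did not respond, and 76 had a mean under 5 CPM. Of all 16097 genes tested, 3247 were under 1 CPM in both FL groups and 3473 in both GM groups. Under 5 CPM the numbers were 5945 and 5916. No difference was called for 3207 and 3437 of those under 1 CPM. The definition of a one-culture responder needs that call, so it limited the counts of low responders. Of the 325 genes called in FL cultures and under 1 CPM in both GM groups, the difference was called for 21 (6.46%), and of the 433 called in GM cultures and under 1 CPM in both FL groups, for 27 (6.24%). The 6.28% of all genes tested is not a matched base for these shares, since it includes genes called in neither culture type. Among all 1728 genes called in FL and not in GM cultures, the difference was called for 291. Among all 2518 called in GM and not in FL cultures, it was called for 398. Both are larger shares than those of the genes under 1 CPM, but these sets are not matched either. The genes under 1 CPM include any that were also called in the other culture type.

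Starting levels before treatment differed by kind of response. They were read at t0 from 6 libraries that took no part in the model, as the FL minus GM difference in log2(mean CPM + 0.5). Of the 189 GM-only risers, 152 (80.4%) were higher in FL than in GM cultures at t0, against 55.2% of all genes tested. Their median FL minus GM difference was 0.79 at t0, 0.99 with DMSO and 0.05 with AZD5582. At the median, GM cultures with AZD5582 thus had the FL level. Of the 161 GM-only fallers, 37 (23%) were higher in FL cultures at t0, with median differences of -0.55 at t0, -0.91 with DMSO and 0.01 with AZD5582. Of the 87 FL-only risers, 23 (26.4%) were higher in FL cultures at t0, with median differences of -0.34, -0.70 and 0.17. With AZD5582 the culture types were closer than with DMSO for 77.8% of the GM-only risers, 74.5% of the GM-only fallers and 69.0% of the FL-only risers, against 57.2% of all genes tested. The 175 FL-only fallers were closer in 50.3%: 87 (49.7%) were higher in FL cultures at t0, and their median differences were -0.01 at t0, 0.41 with DMSO and -0.35 with AZD5582. The values with DMSO and AZD5582 use the same libraries that defined the responders, so only the t0 values are separate from that choice.

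**Figure D2:**
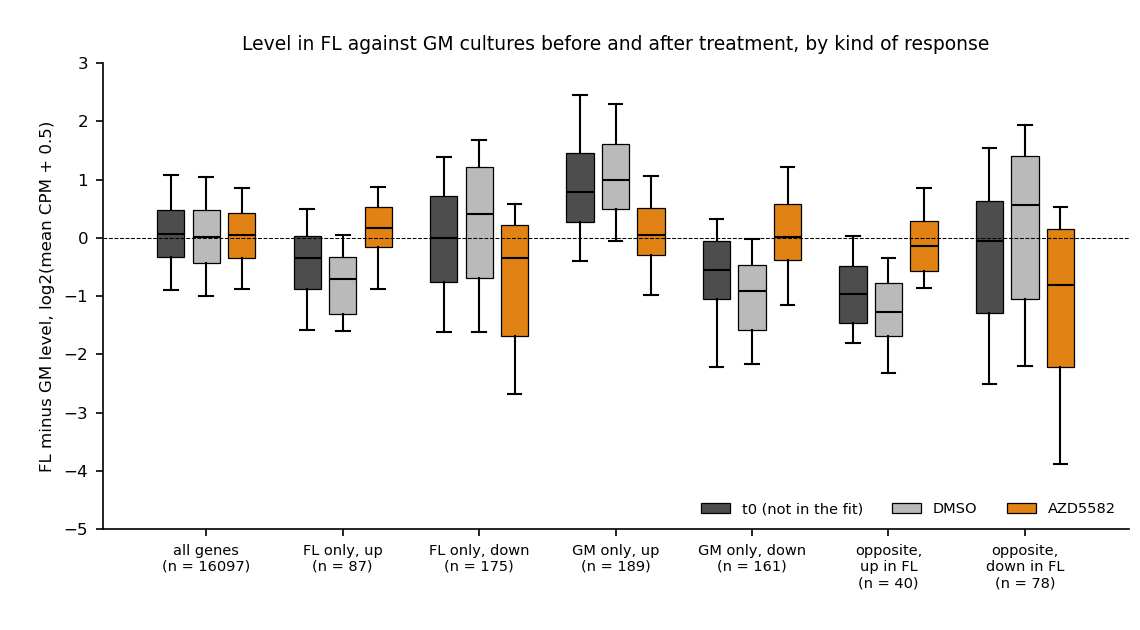
FL minus GM level, as log2(mean CPM + 0.5), for all genes tested and for each kind of responder at t0, with DMSO and with AZD5582. Boxes show quartiles and medians, and whiskers the 10th to 90th percentiles; GM-only risers start above 0 (median 0.79) and GM-only fallers below 0 (median -0.55), and with AZD5582 both have medians near 0 (0.05 and 0.01).

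Among genes that fell in GM cultures only, Fn1 had the largest difference. Fn1, which encodes the matrix protein fibronectin and is abundant in macrophages, stood at 1383, 1136 and 735 CPM in GM cultures with DMSO and 33.4, 57.4 and 50.7 CPM with AZD5582. In FL cultures it stood at 56.7, 17.4 and 19.6 CPM with DMSO and 67.1, 29 and 26.1 CPM with AZD5582. All treated GM libraries came down into the range of the FL cultures. The log2 change was -4.46 ± 0.26 in GM and 0.44 ± 0.23 in FL cultures, a difference of 4.90 ± 0.34 (adjusted p = 5.1e-05). Trf, the iron carrier transferrin, fell from 1260.4, 1040.3 and 1079.9 to 208, 187 and 203 CPM in GM cultures. In FL cultures it stood at 76.2, 76.4 and 112 CPM with DMSO and 110.2, 66.8 and 63.2 CPM with AZD5582, with no common direction. Its difference was 2.25 ± 0.27 (adjusted p = 9.0e-04). Emilin2, an extracellular matrix glycoprotein, had log2 fold changes of -0.16 in FL and -2.18 in GM cultures. Ikbke, the NF-kB and interferon kinase IKK-epsilon, had log2 fold changes of 0.24 in FL and -1.64 in GM cultures. Il1rl1, the receptor for IL-33, fell in GM cultures from levels below those of FL cultures 94 and 95: it stood at 6.59, 8.53 and 6.29 CPM with DMSO and 1.05, 1.59 and 0.746 CPM with AZD5582 in GM cultures, and at 3.98, 63.5 and 38.6 CPM with DMSO and 4.29, 72.4 and 36.4 CPM with AZD5582 in FL cultures.

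Other genes fell in both culture types but much further in GM cultures. Apoe, the lipid-carrying apolipoprotein E, fell from 949, 609.9 and 799.9 to 31.1, 31.3 and 33.1 CPM in GM cultures. In FL cultures it was low throughout, at 7.63, 6.77 and 5.85 CPM with DMSO and 2.73, 3.75 and 2.98 CPM with AZD5582. Its log2 changes were -4.56 ± 0.17 and -1.12 ± 0.17, a difference of 3.44 ± 0.23. Ltb4r1, the leukotriene B4 receptor, had log2 fold changes of -1.16 in FL and -4.72 in GM cultures. The same pattern held for Padi4, which citrullinates histones in neutrophils (-1.43 in FL and -4.32 in GM cultures) and for F5, coagulation factor V (-1.31 in FL and -4.30 in GM cultures). Unlike Apoe, Padi4 was higher in FL cultures with DMSO, at 18.3, 80.2 and 47.2 CPM against 12.2, 17 and 11.4 CPM in GM cultures. Padi4 is one of the neutrophil markers, of which 20 of 22 fell in FL and 18 in GM cultures. Their summed CPM went from 2323, 10957 and 4547 to 220, 4139 and 455 in FL cultures 91, 94 and 95 and from 951 to 1167 down to 136 to 245 in GM cultures. A called difference was found for 3 of the 22, beside 6.28% of all genes tested. The monocyte and macrophage markers fell in both as well (23 of 32 in FL, 24 in GM), to a summed CPM of 811 to 2055 in FL and 19082 to 21237 in GM cultures. Of these 32 markers, 11 had a called difference, 7 with the FL response above. Cx3cr1, the fractalkine receptor, fell from 23.9, 23.2 and 17.6 to 3.72, 8.05 and 9 CPM in GM cultures. In FL cultures it was low, at 0.263, 0.466 and 0.670 CPM with DMSO and 0.680, 0.665 and 1.29 CPM with AZD5582. Its FL estimate of 0.90 ± 0.40 was not called. Ptger3, a prostaglandin E2 receptor, fell in both, with log2 fold changes of -0.82 in FL and -2.77 in GM cultures. Tnfsf14, the ligand LIGHT, fell in GM cultures (-3.43), and its FL estimate of -0.58 ± 0.36 was not called. The part that these cells had in the falls above was not tested.

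Traf4 and Cst7 were among the genes that rose in GM cultures only. Traf4, a TNF receptor-associated adaptor and the only such riser among 20 NIK, IKK and TRAF signalling genes, stood at 3.47, 3.53 and 5.27 CPM in GM cultures with DMSO and 39.9, 29.2 and 35.2 CPM with AZD5582. In FL cultures it stood at 31.7, 21.8 and 30.2 CPM with DMSO and 44.8, 27.8 and 32.9 CPM with AZD5582. The treated GM libraries and both FL groups overlapped, and the GM libraries with DMSO lay below all of them. The difference was -2.87 ± 0.24 (adjusted p = 9.9e-05). Cst7, the cathepsin inhibitor cystatin F, rose from 2.22, 3.24 and 2.83 to 22.5, 22.9 and 23 CPM in GM cultures. It varied widely among FL cultures, at 3.78, 45.1 and 20.1 CPM with DMSO in cultures 91, 94 and 95, but hardly within each of them (2.64, 50.6 and 17.1 CPM with AZD5582). Its difference was -3.30 ± 0.22 (adjusted p = 4.0e-05). Mrc2, an endocytic collagen receptor, had log2 fold changes of 0.49 in FL and 2.31 in GM cultures, and Rab11fip4, an effector of recycling endosomes, of -0.29 in FL and 1.54 in GM cultures. Mrc2 only just met the bound of 0.5. Its FL change was not called but was positive in each culture (0.59, 0.46 and 0.41, 95% interval of the FL response 0.05 to 0.92). Nr1h3, the oxysterol receptor LXR-alpha, went from 15.6, 15 and 18.1 to 52.9, 48.5 and 79.9 CPM in GM cultures and from 2.27, 1.52 and 2.78 to 2.48, 1.75 and 4.23 CPM in FL cultures, where it was low before and after. Bst2, the virus-tethering protein tetherin, had log2 fold changes of -0.28 in FL and 0.56 in GM cultures.

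**Figure D3:**
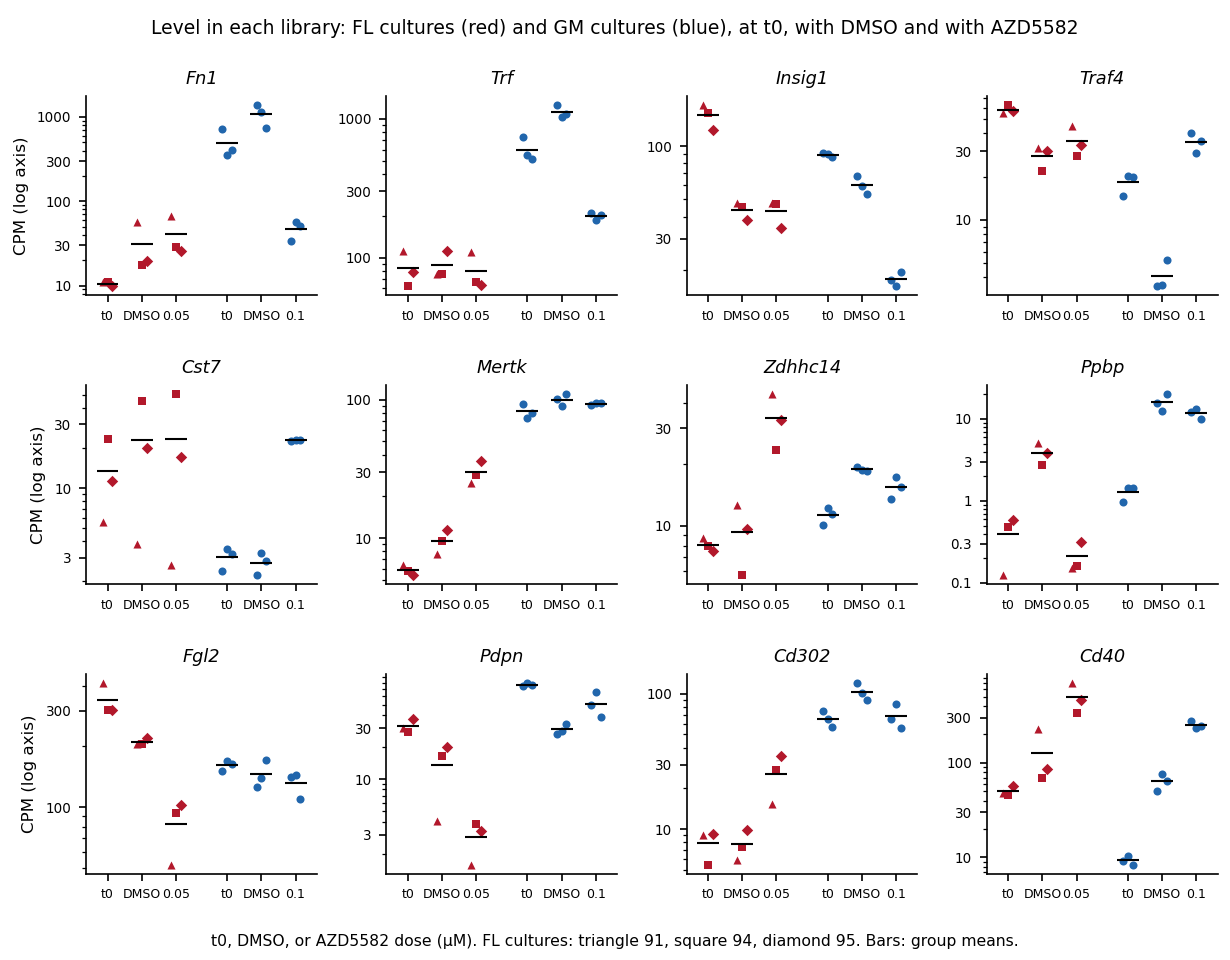
CPM on a log axis of 12 genes in each library of the 2 culture types at t0, with DMSO and with AZD5582; bars are group means. Fn1, Trf, Insig1, Traf4 and Cst7 move in GM cultures only, Mertk, Zdhhc14, Ppbp and Fgl2 in FL cultures only, Pdpn and Cd302 in opposite directions, and Cd40 in both.

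The largest one-sided gene group was cholesterol synthesis, the pathway that makes sterols from acetyl-CoA and that the factor SREBP2 switches on when sterols run low. Of 22 genes tested, 18 fell and 2 rose in GM cultures, whereas 1 fell and 5 rose in FL cultures. The difference was called in 15, with the FL response above in 14 and below in 1, and 11 of them fell in GM cultures only. The list's median log2 difference was 0.77, against -0.05 over all genes tested. The set includes enzymes of the pathway and its regulators, and 3 of those with the smallest p are shown by the 250 bases upstream of their RefSeq start (GRCm38.p6), since the genes moved together. The pentamer bound by NF-Y, a factor that works with SREBP2, is CCAAT, in capitals on either strand (ATTGG on the other).
Insig1, chr5:28071162-28071411, plus strand: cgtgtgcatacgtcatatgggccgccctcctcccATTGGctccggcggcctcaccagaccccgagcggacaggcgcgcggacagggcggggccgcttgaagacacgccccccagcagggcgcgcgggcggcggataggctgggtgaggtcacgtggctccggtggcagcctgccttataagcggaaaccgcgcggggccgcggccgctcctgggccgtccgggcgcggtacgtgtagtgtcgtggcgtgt
Msmo1, chr8:64733579-64733828, minus strand: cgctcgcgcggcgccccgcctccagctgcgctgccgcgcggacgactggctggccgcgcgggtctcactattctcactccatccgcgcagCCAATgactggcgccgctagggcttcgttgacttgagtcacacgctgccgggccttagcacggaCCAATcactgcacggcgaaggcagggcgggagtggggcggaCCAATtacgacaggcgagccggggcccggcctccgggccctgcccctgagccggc
Sc5d, chr9:42264301-42264550, minus strand: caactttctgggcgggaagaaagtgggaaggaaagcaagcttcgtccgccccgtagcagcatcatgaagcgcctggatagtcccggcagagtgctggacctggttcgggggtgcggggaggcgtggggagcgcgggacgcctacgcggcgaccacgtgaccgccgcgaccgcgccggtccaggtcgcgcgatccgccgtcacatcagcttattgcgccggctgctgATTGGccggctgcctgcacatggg
Msmo1 had 3 matches, starting at positions -160, -96 and -55 before the start of transcription, and Insig1 and Sc5d 1 each, at -216 and -24. All 15 genes of the list with an entry in the promoter table held a match. So did 26 of 34 cell cycle genes (76.5%) and 11 of 19 genes of the NRF2 list (57.9%), whose called differences lay mostly or all on the other side. Among the 11107 genes tested here that had an entry, 40.2% did, as did 33.9% of all 32851 promoters given by RefSeq. A match is a description of these letters and not a site of binding.

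Insig1, which retains the SREBP complex in the endoplasmic reticulum and is itself an SREBP target, stood at 67.7, 59.1 and 53.5 CPM in GM cultures with DMSO and 17.7, 16.2 and 19.4 CPM with AZD5582. In FL cultures it stood at 47.5, 45.1 and 38.4 CPM with DMSO and 47.5, 47.2 and 34.3 CPM with AZD5582. The 2 FL groups overlapped, while every treated GM library lay below every other library of the 4 groups. Its difference was 1.64 ± 0.15 (adjusted p = 2.1e-04). Msmo1, the sterol C4 methyl oxidase, fell from 98.4, 79.2 and 85.2 to 29.6, 25.3 and 29.4 CPM in GM cultures and stood at 70.8, 65.6 and 53.5 CPM with DMSO and 63.4, 60.4 and 51.5 CPM with AZD5582 in FL cultures (difference 1.44 ± 0.14). Sc5d, the lathosterol oxidase near the end of the pathway, had log2 fold changes of 0.10 in FL and -1.23 in GM cultures, and Stard4, a cholesterol transfer protein, of 0.17 in FL and -1.46 in GM cultures. At t0 Insig1 had a mean of 149 CPM in FL and 89.4 CPM in GM cultures, and Sc5d 85.6 and 74.5 CPM. Fdft1 (squalene synthase) and Hsd17b7, both chosen after their values were seen, moved in opposite directions, with 0.53 in FL and -0.36 in GM cultures and 0.42 in FL and -0.54 in GM cultures. Pmvk, phosphomevalonate kinase, was the only gene of the list with the FL response called below, with rises of 0.42 in FL and 1.20 in GM cultures. The count of 14 was 13 without FL culture 91 and 9 to 14 with 1 GM library left out (9 without DMSO library 1). In a model of all 24 libraries, the GM falls numbered 18 at 0.1 µM, 10 at 0.5 µM and 9 at 1 µM, and the list's median log2 change was -0.62, -0.19 and -0.15. These 3 doses share their DMSO libraries. Across all genes in that model, 18.9%, 27.8% and 28.9% fell and 13.9%, 19.3% and 19.9% rose. Insig1 itself had log2 fold changes of -1.54 and -1.29 at 0.5 and 1 µM.

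Genes that rose in FL cultures only were fewer. Mertk, a receptor for apoptotic cells known from macrophages, rose from 7.6, 9.44 and 11.4 to 24.9, 28.8 and 35.9 CPM in FL cultures 91, 94 and 95. It stood higher in GM cultures, at 100.4, 90.3 and 109.6 CPM with DMSO and 91.2, 94.3 and 94.4 CPM with AZD5582. The difference was 1.67 ± 0.13 (adjusted p = 8.1e-05). Mertk was the only FL-only riser among the 32 monocyte and macrophage markers, 23 of which fell in FL cultures. Zdhhc14, a palmitoyl transferase, rose from 12.7, 5.71 and 9.6 to 44.1, 23.5 and 32.9 CPM in FL cultures and stood at 19.4, 18.6 and 18.5 CPM with DMSO and 13.5, 17.3 and 15.5 CPM with AZD5582 in GM cultures (difference 2.07 ± 0.17). The treated FL libraries all exceeded the GM libraries, whereas those with DMSO all lay below them. Tnfrsf14, the TNF receptor family member HVEM, had log2 fold changes of 1.78 in FL and 0.19 in GM cultures. Ltbp3, which binds latent TGF-beta, had log2 fold changes of 1.59 in FL and -0.21 in GM cultures, Capn5, a calpain protease, of 2.13 in FL and 0.39 in GM cultures, and Rhobtb1 of 1.65 in FL and 0.12 in GM cultures. The GM change of Capn5 was not called but was positive in each library (0.23, 0.31 and 0.60, 95% interval of the GM response 0.06 to 0.72). N4bp1, an inhibitor of NF-kB signalling, had log2 fold changes of 1.02 in FL and 0.13 in GM cultures. It was the only one of 18 NF-kB subunits and inhibitors with a called difference, beside 6.28% of all genes tested.

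MHC class I genes belonged in part to this group. Of 23 genes for class I molecules and peptide loading, 14 rose in FL and 15 in GM cultures, beside 13.2% and 17.9% of all genes tested. The difference was called in 3, all with the FL response above, beside 2.58% of all genes called above. H2-D1, a classical class I heavy chain, stood at 2888, 1339 and 1648 CPM with DMSO and 4872, 2313 and 3129.8 CPM with AZD5582 in FL cultures, and at 2989.6, 3043 and 2982 CPM with DMSO and 2959.5, 2958 and 3221 CPM with AZD5582 in GM cultures. It rose in each FL culture, by 0.80 ± 0.10, with a GM estimate of 0.09 ± 0.10. H2-M3, a nonclassical class I chain, had log2 fold changes of 0.79 in FL and 0.01 in GM cultures. The other classical chain H2-K1 rose in both (0.69 in FL and 0.42 in GM cultures), and its difference was 0.27 (95% interval -0.05 to 0.60). These genes are near-identical in parts, so reads may be split among them.

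Genes that fell in FL cultures only were led by the platelet-type chemokine Ppbp (CXCL7). It stood at 5.03, 2.76 and 3.85 CPM with DMSO and 0.153, 0.161 and 0.316 CPM with AZD5582 in FL cultures, and at 15.5, 12.6 and 20.1 CPM with DMSO and 12.3, 13.2 and 9.88 CPM with AZD5582 in GM cultures. The difference was -3.89 ± 0.38 (adjusted p = 2.6e-04). Fgl2, a secreted fibrinogen-like protein that is among the cDC1 markers, fell from 206, 205 and 221 to 52, 94 and 102 CPM in FL cultures and stood at 126, 139 and 172 CPM with DMSO and 142, 144 and 109.9 CPM with AZD5582 in GM cultures (difference -1.35 ± 0.25). Xcr1 also fell in FL cultures (-2.87 ± 0.33), but it was at most 0.0279 CPM in the GM cultures with DMSO or AZD5582, and its difference was not called (interval -7.53 to 0.81). Tlr3, the sensor of double-stranded RNA that marks cDC1, had a log2 change of -3.95 ± 0.45 in FL cultures, a GM estimate of -0.69 ± 0.34 and a difference of -3.27 ± 0.56. Of the 28 cDC1 markers tested, 15 fell and 3 rose in FL cultures, and 9 fell and 7 rose in GM cultures. Il1f9, which encodes IL-36 gamma, had log2 fold changes of -1.89 in FL and 0.17 in GM cultures. Kit, the receptor for stem cell factor, stood at 487, 117 and 148 CPM with DMSO and 193, 58.4 and 76.6 CPM with AZD5582 in FL cultures, and at 83.8, 104 and 135 CPM with DMSO and 115, 103 and 146 CPM with AZD5582 in GM cultures. The summed CPM of mast cell, basophil and eosinophil markers went from 899, 3971 and 1976 to 508, 4243 and 1890 over the same FL cultures. Kit itself belongs to this list, so the sum is not separate from its fall. The part of these cells in the fall of Kit was not tested. Lgals3, the lectin galectin-3 and one of the macrophage markers, fell from 647, 1407 and 1501 to 166, 487 and 413 CPM in FL cultures and stood at 2719, 2562 and 2559.8 CPM with DMSO and 2069.5, 2248 and 2084 CPM with AZD5582 in GM cultures. Il7r, the IL-7 receptor, had log2 fold changes of -2.10 in FL and -0.36 in GM cultures, and Dtx4, a ligase of the Notch pathway, of -1.59 in FL and 0.03 in GM cultures.

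A few FL-only fallers act in cell death and in the pathway that IAP antagonists release. Pmaip1, which encodes the BH3-only protein NOXA, fell from 543, 315 and 355 to 134, 164 and 174 CPM in FL cultures and stood at 124, 143 and 140.3 CPM with DMSO and 128, 122 and 111 CPM with AZD5582 in GM cultures. It was the only one of 31 BCL2 family and cell death genes with a called difference (-1.24 ± 0.24, adjusted p = 0.012), beside 6.28% of all genes tested. Without AZD5582 library 1 of the GM cultures the adjusted p of Pmaip1 was 0.051. Map3k14, which encodes NIK, stood at 984, 288 and 356 CPM with DMSO and 376, 192 and 208 CPM with AZD5582 in FL cultures and at 141, 161 and 163 CPM with DMSO and 132, 129 and 137 CPM with AZD5582 in GM cultures. Its difference (-0.77 ± 0.19, adjusted p = 0.033) lost the call when FL culture 91 or any GM library other than DMSO library 3 was left out, with an adjusted p up to 0.12. Mmp9, the gelatinase of neutrophils and macrophages, had log2 fold changes of -2.42 in FL and -0.12 in GM cultures, and its adjusted p was 0.054 without FL culture 91. No difference was called for the genes of the IAPs that AZD5582 binds: for Birc2 (cIAP1) it was -0.54 (95% interval -1.06 to -0.02), for Birc3 (cIAP2) 0.22 (-0.19 to 0.62) and for Xiap 0.05 (-0.40 to 0.50). Without FL culture 91 the difference of Birc3 was 0.55 and was called (adjusted p = 0.026).

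The early response factors, genes that cells switch on within minutes of a signal, fell in similar numbers in both culture types. Of 26 tested, 14 fell and 4 rose in FL cultures, and 13 fell and 4 rose in GM cultures, with medians of -0.65 and -0.61. The difference was called in 6, all with the FL response below, 4 of which fell in FL cultures. The other 2 were Maff, which rose in GM cultures only (0.13 in FL and 1.07 in GM cultures), and Nr4a2, which rose in both (0.69 in FL and 2.25 in GM cultures) and was chosen after its values were seen. The difference of Maff lost the call without AZD5582 library 1 or 2 of the GM cultures (adjusted p up to 0.057). That of Nr4a2 lost it without FL culture 91 (adjusted p = 0.096), DMSO library 2 or AZD5582 library 1 or 3 of the GM cultures. DESeq2 called 4 of the 26 above and 6 below, and with the GM dose of 0.5 or 1 µM 5 were called above and 5 or 4 below. Egr2 stood at 2.99, 23 and 22.1 CPM with DMSO and 0.624, 3.77 and 3.59 CPM with AZD5582 in FL cultures, and at 81.2, 73.6 and 50.4 CPM with DMSO and 39.1, 48.9 and 33.3 CPM with AZD5582 in GM cultures. It fell in both, with log2 changes of -2.55 ± 0.21 and -0.69 ± 0.18. Egr3 fell in FL cultures only (-2.65 in FL and -0.14 in GM cultures). March1 encodes the ligase MARCH1, which removes MHC class II and CD86 from the surface. It was the only one of 17 MHC class II genes with a called difference, beside 6.28% of all genes tested. It fell from 9.77, 44.3 and 54.3 to 1.65, 9.19 and 7.25 CPM in FL and from 114, 103 and 124 to 75.7, 86.3 and 75.4 CPM in GM cultures. In a model of all 24 libraries the differences of Egr2, Egr3, March1 and Kit were no longer called.

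Opposite responses were found in both directions. Cd302, a C-type lectin receptor, rose from 5.92, 7.42 and 9.92 to 15.3, 27.3 and 34.6 CPM in FL cultures and fell from 119, 101 and 90.4 to 64.7, 84 and 55.8 CPM in GM cultures. The difference was 2.21 ± 0.23 (adjusted p = 3.2e-04). The transcription factor gene Hivep3 (1.58 in FL and -0.58 in GM cultures), the scaffold gene Frmd4b (0.49 in FL and -1.22 in GM cultures) and the kinase gene Nuak1 (0.68 in FL and -0.78 in GM cultures) did the same. All 4 were lower in FL cultures at t0, as were 35 of the 40 genes of this kind. Frmd4b did not rise in FL culture 91 (-0.05), and it rose in cultures 94 and 95 (0.80 and 0.70). Pdpn, podoplanin, the ligand of CLEC-2, fell from 4.08, 16.6 and 19.9 to 1.58, 3.79 and 3.28 CPM in FL cultures and rose from 26.6, 28.1 and 32.9 to 49.5, 65 and 38 CPM in GM cultures (difference -2.96 ± 0.32, adjusted p = 4.4e-04). Cxcr4, the receptor for CXCL12, fell from 121, 141 and 104 to 28.7, 66.4 and 41.6 CPM and rose from 85.1, 109 and 118 to 126, 164 and 172 CPM. Jag2, a Notch ligand, had log2 fold changes of -0.60 in FL and 1.18 in GM cultures, from a mean of 57.9 CPM at t0 in FL and 1.25 CPM in GM cultures. The neutrophil chemokine Cxcl3 had log2 fold changes of -1.22 in FL and 1.67 in GM cultures, the organic anion transporter Slco4a1 of -1.07 in FL and 2.51 in GM cultures, the RNA-binding gene Rbpms2 of -0.81 in FL and 1.74 in GM cultures, the xenobiotic-metabolising enzyme Cyp1b1 of -1.57 in FL and 1.10 in GM cultures, osteopontin (Spp1) of -1.33 in FL and 0.69 in GM cultures and the myeloid lectin Clec5a of -0.99 in FL and 0.62 in GM cultures. Cxcl3 changed by -2.70, -1.27 and -0.06 in FL cultures 91, 94 and 95. Cyp1b1 was low in FL cultures, with means of 1.36 CPM with DMSO and 0.42 CPM with AZD5582. At 1 µM in GM cultures Pdpn, Cxcr4, Spp1 and Clec5a were not called as changed, with log2 values of -0.05, 0.07, -0.56 and -0.38, while Jag2 (1.14) and Slco4a1 (1.43) were higher than with DMSO.

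Among genes against oxidative stress, most called differences had the FL response below. The factor NRF2 switches on genes that detoxify quinones, degrade heme and supply glutathione. Of 23 such genes tested, 11 fell and 1 rose in FL cultures, while 10 rose and 5 fell in GM cultures. The difference was called in 8, with the FL response below in 7, and the list's median difference was -0.44. Hmox1, heme oxygenase 1, stood at 28, 37.1 and 42.2 CPM with DMSO and 11.2, 25.4 and 26.2 CPM with AZD5582 in FL cultures, and at 291, 257 and 297 CPM with DMSO and 591, 475 and 476 CPM with AZD5582 in GM cultures. It fell in every FL culture and rose in all GM libraries, a difference of -1.80 ± 0.21 (adjusted p = 5.6e-04). Nqo1, a quinone reductase, had log2 fold changes of -0.84 in FL and 1.02 in GM cultures, the peroxiredoxin Prdx1 of -0.32 in FL and 0.79 in GM cultures and the peroxiredoxin Prdx6 of -0.94 in FL and 0.25 in GM cultures. The count of 7 below was 7 without FL culture 91 and 4 without AZD5582 library 1 of the GM cultures, and in place of 0.1 µM the GM dose of 1 µM gave 4.

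Cell cycle genes fell in FL cultures, and the difference from GM cultures depended on the GM dose. Of 42 genes tested, 31 fell and none rose in FL cultures at 0.05 µM, and 4 fell and 6 rose in GM cultures at 0.1 µM. Of all genes tested, 17.5% fell in FL and 17.7% in GM cultures. The list's summed CPM was 5360, 4833 and 5194 in FL and 4130, 4775 and 4836 in GM cultures at t0. With DMSO it was 2153, 3396 and 2829 in FL and 1398, 1601 and 1302 in GM cultures. With AZD5582 it was 1847, 3739 and 3548 in FL and 1682, 1925 and 1593.5 in GM cultures. The part of these levels in the responses was not tested. The difference of responses was called in 7 of the 42, all below, and the list's median difference was -0.80. Ccne2, cyclin E2, stood at 2.83, 14.6 and 6.9 CPM with DMSO and 1.12, 9.68 and 3.37 CPM with AZD5582 in FL cultures, and at 2.44, 2.39 and 2.42 CPM with DMSO and 3.05, 5.84 and 3.2 CPM with AZD5582 in GM cultures. Bub1b, a spindle checkpoint kinase, had log2 fold changes of -1.25 in FL and 0.25 in GM cultures (adjusted p of the difference 0.014, or 0.051 without AZD5582 library 2 of the GM cultures), and the mitotic kinase gene Pbk, an opposite responder outside the list, of -1.64 in FL and 0.77 in GM cultures. Ccne2 fell within each FL culture, although the FL cultures differed in level more than they fell. In GM cultures at 0.5 and 1 µM, 32 and 33 of the 42 fell, and Bub1b changed by -1.05 and -1.50. The number of differences called below was 3 without FL culture 91, without DMSO library 1 or without AZD5582 library 2 of the GM cultures, 4 without FL culture 95 or AZD5582 library 3, and 11 without FL culture 94. With all 24 libraries in the edgeR model it was 0, with 6 genes at an unadjusted p under 0.05. On the 12 libraries DESeq2 called 15 below and 1 above, and limma-voom 5 below. In place of 0.1 µM, the GM dose of 0.5 µM gave 8 above and 1 below, and 1 µM gave 11 above and 1 below.

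**Figure D4:**
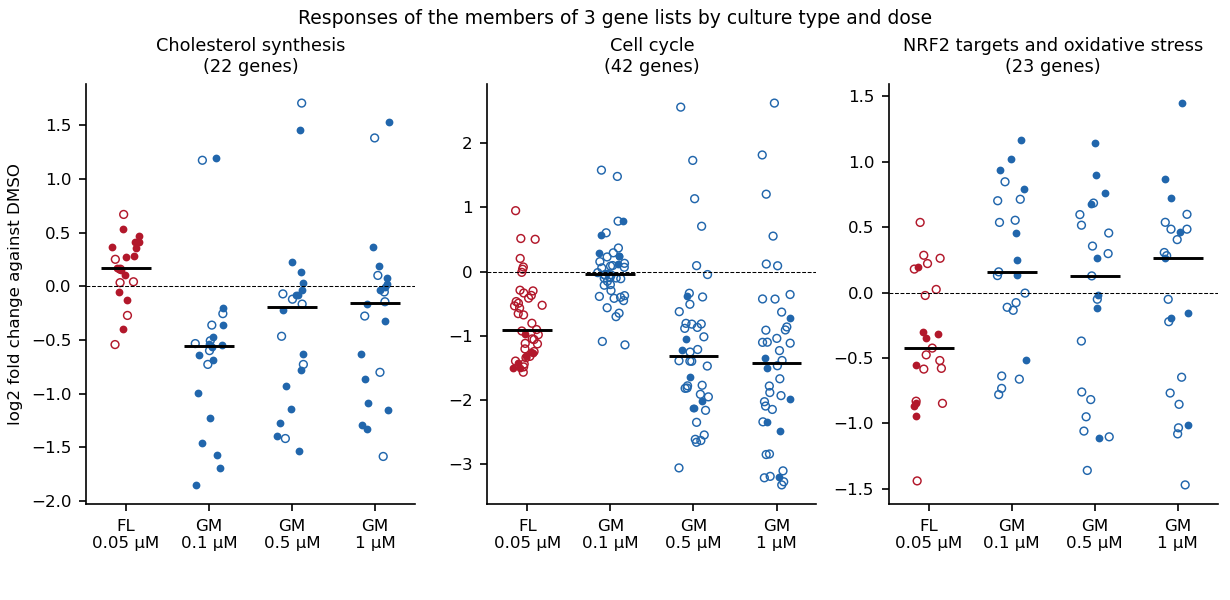
Log2 fold change against DMSO of each gene of 3 lists in FL cultures at 0.05 µM and GM cultures at 0.1, 0.5 and 1 µM (FL and 0.1 µM from the 12-library model, 0.5 and 1 µM from the 24-library model). Filled points have a called difference of responses, and bars are medians; cholesterol synthesis falls most at 0.1 µM in GM cultures, and cell cycle genes fall in FL cultures and at 0.5 and 1 µM in GM cultures but not at 0.1 µM (median -0.03).

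Many genes of T cell co-stimulation and DC maturation rose in each culture type, some of them further in GM cultures. Of 24 co-stimulatory and B7 family genes, 13 rose and 4 fell in FL cultures, and 15 rose and 4 fell in GM cultures. Of all genes tested, 13.2% rose and 17.5% fell in FL cultures, and 17.9% rose and 17.7% fell in GM cultures. The difference was called in 7 of the 24, with the FL response below in 6, beside 6.28% of all genes tested. Cd80, a ligand of CD28, went from 235, 263 and 276 to 282, 429 and 487 CPM in FL cultures and from 49.2, 52.4 and 52.2 to 225, 189 and 139.6 CPM in GM cultures. GM cultures started lower, and with AZD5582 they were still below the FL libraries with DMSO. The log2 rises were 0.58 ± 0.16 and 1.92 ± 0.16, a difference of -1.34 ± 0.22 (adjusted p = 0.0063). Cd86, the other CD28 ligand, rose by 0.96 in FL and 1.87 in GM cultures. With the 12 libraries the difference was not called for the TNF family ligands of co-stimulation: Cd70 rose by 3.52 in FL and 3.11 in GM cultures (interval of the difference -0.30 to 1.11), Tnfsf9, which encodes 4-1BB ligand, by 2.88 in FL and 2.33 in GM cultures (-0.01 to 1.12), and Tnfsf4, which encodes OX40 ligand, by 1.36 in FL and 2.24 in GM cultures (-1.49 to -0.27, adjusted p = 0.087). That of Tnfsf9 was called without DMSO library 3 of the GM cultures (adjusted p = 0.036), and that of Tnfsf4 by DESeq2 (adjusted p = 0.039). Of 37 genes of mature migratory DCs, 23 rose and 2 fell in FL cultures, and 31 rose and 0 fell in GM cultures. The difference was called in 5 of the 37, all below and all rising in GM cultures only, Cst7 among them. FL culture 91 was already high for this list with DMSO, at a summed 69609 CPM against 24495 and 28859 CPM in cultures 94 and 95, and the treated FL libraries reached 63727 to 94390 CPM. Mreg, which encodes melanoregulin, changed by -0.28 log2 units in culture 91 and by 0.28 and 0.54 in cultures 94 and 95, and Tbc1d4, a regulator of vesicle traffic, by -0.69, 0.30 and 0.25. Without culture 91, Cst7 was the only gene of the list called below, Anxa3 (chosen after its values were seen) was called above, and the differences of Mreg (adjusted p = 0.051) and Tbc1d4 (adjusted p = 0.082) lost the call. Mreg also lost it without AZD5582 library 1 or 2 of the GM cultures, and Tbc1d4 without any GM library other than DMSO library 3. Ccr7, the receptor that guides DCs to lymph nodes, rose by 0.71 in FL and 1.36 in GM cultures, with a difference of -0.64 (-1.17 to -0.12) that was not called.

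Cytokine genes showed both kinds of imbalance. Of 22 tested, 10 rose and 6 fell in FL cultures, and 12 rose and 3 fell in GM cultures. Of all genes tested, 13.2% rose and 17.5% fell in FL cultures, and 17.9% rose and 17.7% fell in GM cultures. The difference was called in 5 of the 22, with the FL response below in 4, beside 6.28% of all genes tested. Il6 stood at 16.6, 24.6 and 22.6 CPM with DMSO and 34.8, 61 and 66.2 CPM with AZD5582 in FL cultures, and at 4.98, 6.53 and 6.06 CPM with DMSO and 95.4, 45.5 and 42.1 CPM with AZD5582 in GM cultures. From these different starting levels the treated libraries reached an overlapping range. The log2 rises were 1.29 ± 0.27 and 3.45 ± 0.29, and the adjusted p of the difference was 0.008, or 0.06 without FL culture 91. Ebi3, the shared subunit of IL-27 and IL-35, went the other way, with rises of 2.29 in FL and 1.28 in GM cultures (difference 1.00 ± 0.16). Tnf rose in FL cultures (0.83 ± 0.28) and had a GM estimate of -0.44 ± 0.26, and the difference was not called (adjusted p = 0.07). It was called without FL culture 94 (adjusted p = 0.022), without DMSO library 3 of the GM cultures (0.039) and by DESeq2 (0.0067).

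Among 18 NF-kB subunits and inhibitors, the difference was called for N4bp1 only, a count close to the 6.28% of all genes tested. In FL cultures 11 rose and 1 fell, and in GM cultures 12 rose and 1 fell. Of all genes tested, 13.2% rose in FL and 17.9% in GM cultures. Nfkb2, which encodes p100, rose by 1.06 in FL and 1.04 in GM cultures (interval of the difference -0.37 to 0.42), the inhibitor gene Nfkbia by 1.64 in FL and 1.32 in GM cultures (-0.16 to 0.79) and the ubiquitin-editing Tnfaip3 by 1.62 in FL and 1.69 in GM cultures (-0.46 to 0.32). The survival gene Bcl2l1 (BCL-XL) rose by 1.97 in FL and 2.15 in GM cultures (-0.50 to 0.15), and Irf8, a factor that DCs of the cDC1 type require, by 1.42 in FL and 1.18 in GM cultures (-0.11 to 0.59). Batf3, another such factor, had log2 fold changes of 0.24 in FL and 0.57 in GM cultures (-0.66 to 0.01). The sign of the differences of Nfkb2, Nfkbia, Tnfaip3 and Irf8 changed in some of the alternative analyses, and the intervals allow differences of up to 0.42 log2 units in size for Nfkb2 and 0.79 for Nfkbia.

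**Figure D5:**
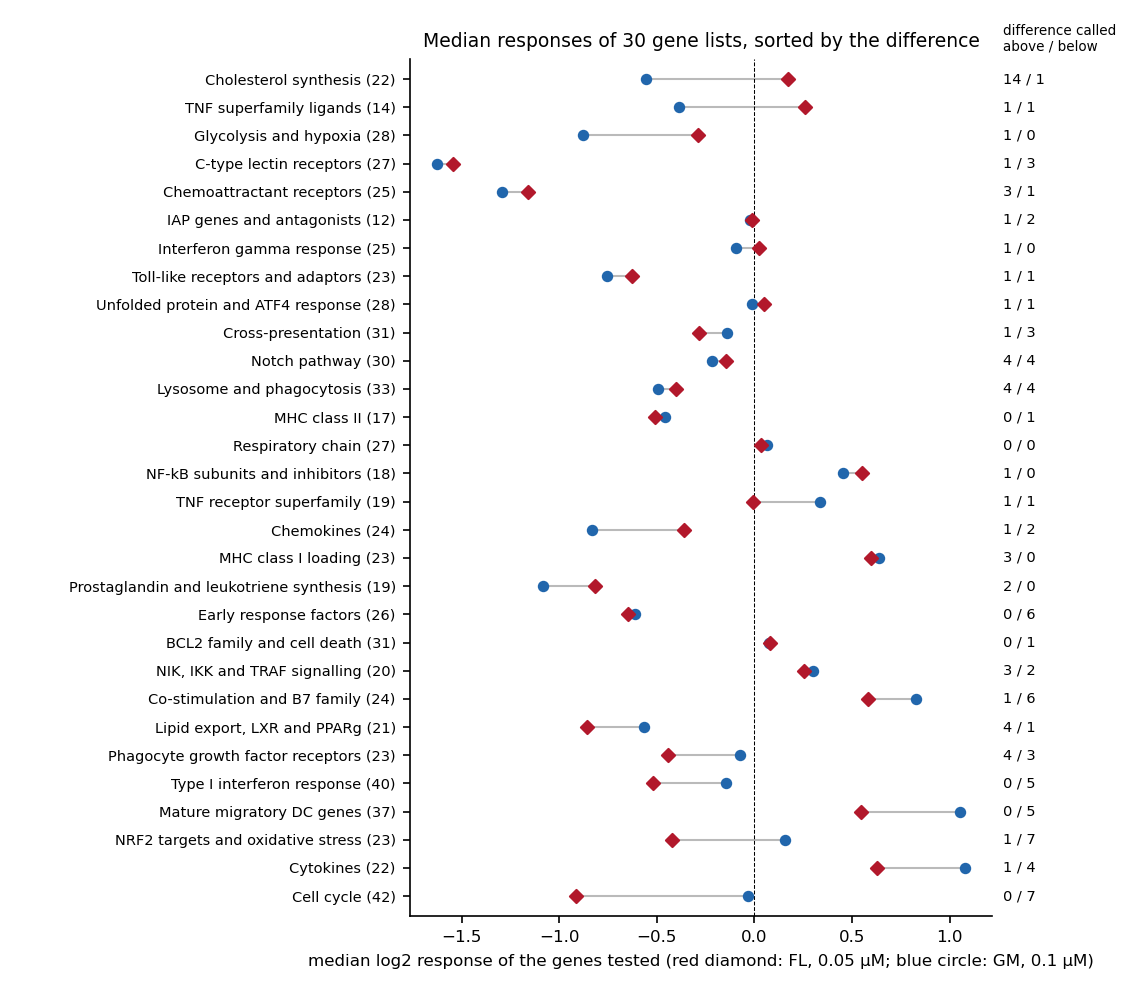
Median log2 response of the genes tested in 30 pathway lists (number tested in brackets) in FL cultures (red diamonds) and GM cultures (blue circles), sorted by the median difference. Numbers at the right count genes whose FL response was called above and below the GM response; cholesterol synthesis (14 and 1) is at the top, and cell cycle (0 and 7) at the bottom.

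The remaining lists are given beside the 6.28% of all genes tested with a called difference (2.58% above and 3.7% below). Type I interferon response genes fell in both (19 of 40 in FL, 13 in GM cultures), and 5 differences were called, all below. The Notch pathway had 4 differences above and 4 below among 30 genes, and lysosome and phagocytosis genes 4 and 4 among 33. In that last list the osteoclast-type enzymes Acp5 (0.02 in FL and 1.64 in GM cultures) and Ctsk (-0.19 in FL and 1.39 in GM cultures) rose in GM cultures only, from levels several times those of FL cultures. Acp5 stood at 109, 123 and 109 CPM with DMSO and 278, 336 and 403 CPM with AZD5582 in GM cultures, and at 9.28, 5.74 and 7.39 CPM with DMSO and 6.37, 5.04 and 13.1 CPM with AZD5582 in FL cultures. The proteases cathepsin B (Ctsb, 0.30 in FL and -0.67 in GM cultures) and cathepsin C (Ctsc, 0.71 in FL and -0.39 in GM cultures) and the beta-galactosidase Glb1 (0.33 in FL and -0.49 in GM cultures) went the other way. Among 27 respiratory chain genes edgeR, DESeq2 and limma-voom called 0 differences, and 2 had an unadjusted p under 0.05 in edgeR. In FL cultures 3 of these genes rose and 1 fell. C-type lectin receptors fell in both (19 of 27 in FL and 16 in GM cultures, median log2 change -1.54 in FL cultures), with 1 difference above and 3 below.

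Higher doses in GM cultures were set beside the responders, with the reservation that they share DMSO libraries with the 0.1 µM response. Of the 189 GM-only risers, 170 rose at 0.5 µM and 167 at 1 µM, and of the 161 GM-only fallers, 153 and 152 fell. Some genes that responded in FL cultures only at the doses compared did move in GM cultures at higher doses. Of the 175 FL-only fallers, 65 fell in GM cultures at 0.5 µM and 72 at 1 µM, beside 27.8% and 28.9% of all genes. Of the 87 FL-only risers, 4 rose at each of these doses, beside 19.3% and 19.9% of all genes, and 23 and 30 fell. Traf4 rose in GM cultures by 4.09 at 0.5 µM and 4.15 at 1 µM. Mertk, not called at 0.1 µM, had GM values of -0.48 and -0.83 at these doses. Fn1 had values of -5.21 and -5.23, and Fgl2 of 0.24 and 0.13.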

How the data were processed

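Gene counts of total RNA libraries from mouse dendritic cell cultures were used as deposited, 1 table per library with 55414 gene identifiers. Per the submitters' processing notes, STAR 2.7.3a, HTSeq 0.12.4, DESeq2 1.30.1 and the build GRCm39 were used. The deposited counts are whole numbers without normalization, and no source used here gives the strand setting of the counting, so overlapping and antisense genes are uncertain. Lines that name no gene (12.5% to 15.8% of each of the 12 libraries) were left out. Symbols for 52081 identifiers came from an annotation table, and promoter sequences from RefSeq (GRCm38.p6), which differs from the build of the counts and was matched by symbol.

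The 12 libraries were fitted together in edgeR 4.0.16 (R 4.3.3) with TMM scaling, its expression filter, robust quasi-likelihood tests and Benjamini-Hochberg adjustment over all 16097 genes, at a threshold of 0.05. The design held 1 term per FL culture, the GM level and 1 AZD5582 effect per culture type, with 6 residual degrees of freedom. Levels are CPM computed here from the counts with TMM over all 24 libraries. Same-numbered FL libraries deviated together in cultures 91 and 94 (r = 0.68 and 0.63 across genes), as their titles imply. For culture 95 r was 0.19, below the 0.34 between its DMSO library and the AZD5582 library of culture 94. The pairing of culture 95 therefore rests on the titles. Same-numbered GM libraries did so very little (0.06, 0.08 and 0.07, against -0.062 to -0.0016 for the other pairs). FL libraries were therefore paired and GM libraries were not. Higher GM doses came from a model of all 24 libraries. DESeq2 1.42.0 and limma-voom (limma 3.58.1), other scaling, filtering, pairing and doses, and leaving out each library were alternatives, and the code was tested on simulated data.

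The comparison and the gene lists were chosen with earlier results of these data known. Genes were eligible for naming by the 10 largest differences in each direction, the 6 largest of each kind of responder, a panel of IAP, NF-kB and DC genes, and up to 4 members of a list by the smallest p with up to 2 in the other direction. The first 2 groups were limited to protein-coding genes with a mean of 10 CPM in a group and non-overlapping changes by library. The text names a selection of them, and 1 result is not reported here. Intervals are 95% intervals from the fitted SE.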

Additional observations from a re-analysis of the deposited data

Results flagged for a closer look

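The response differed between FL and GM cultures by the test of the difference itself in 1011 genes, the subject of the report. Those given here are the named genes whose responses were called in opposite directions, as FL minus GM log2 values. Above 0, with a rise in FL and a fall in GM cultures, were Cd302 (2.21), Hivep3 (2.17), Frmd4b (1.70), Nuak1 (1.46), Ctsc (1.09), Hsd17b7 (0.96), Fdft1 (0.89) and Glb1 (0.82). Below 0, with a fall in FL and a rise in GM cultures, were the chemokine, receptor and ligand genes Cxcl3 (-2.89), Cxcr4 (-2.14), Pdpn (-2.96), Jag2 (-1.78), Clec5a (-1.61) and Spp1 (-2.02). The detoxifying genes Cyp1b1 (-2.67), Nqo1 (-1.86) and Hmox1 (-1.80) were of the same kind. So were the cell cycle genes Pbk (-2.41) and Ccne2 (-1.77), the transporter gene Slco4a1 (-3.58) and Rbpms2 (-2.55).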

How the results depend on the processing

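The FL and GM libraries were fitted with 1 common spread, although the biological coefficient of variation was 0.208 in FL and 0.136 in GM libraries fitted alone. Each type fitted alone, an alternative chosen after seeing the data, gave 3000 FL calls and 6588 GM calls. The 3 GM libraries per group may come from 1 culture, and doses differ between culture types.

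The replicate block mattered most. With no replicate block for the FL cultures there were 1330 FL and 2197 GM calls, and the difference was called in 11 genes above and 6 below. FL-only responders numbered 2, GM-only responders 9, opposite responders 4 and same-direction responders 2, with 4 cholesterol genes above, and 0 cell cycle and 0 NRF2 genes below (1 and 8 at an unadjusted p under 0.05). With a block in both culture types the difference was called in 238 above and 393 below, with 151 FL-only and 203 GM-only responders.

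DESeq2 called more: 862 above and 934 below, 464 FL-only, 615 GM-only and 409 same-direction responders, 15 cell cycle and 11 NRF2 genes below. Limma-voom with weights gave 171 FL-only responders. Without a filter there were 11 cell cycle genes below, and with all 24 libraries 295 below, 174 FL-only, 78 opposite and 115 same-direction responders and 0 cell cycle genes below. With 0.5 µM in GM cultures there were 1724 above and 991 below, 1184 GM-only and 839 same-direction responders and 1 cell cycle gene below (8 above). With 1 µM there were 1416 above (66.4% of the calls) and 718 below, 169 FL-only, 892 GM-only and 702 same-direction responders, and 8 cholesterol genes above and 1 cell cycle (11 above) and 4 NRF2 genes below. A bound of 0.3 in place of 0.5 on the other response gave 212 FL-only and 264 GM-only responders, and no bound 291 and 398. One-culture responders under 5 CPM in the other type numbered 76, against 16 under 1 CPM.

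Over the fits that left out 1 FL culture or 1 GM library, the ranges were 3162 to 5012 FL calls, 4290 to 6482 GM calls, 182 to 639 differences above, 246 to 768 below, 123 to 303 FL-only, 133 to 483 GM-only, 60 to 142 opposite and 99 to 275 same-direction responders, 9 to 14 cholesterol genes above, and 3 to 11 cell cycle and 4 to 8 NRF2 genes below. Of 81 genes named in the report with a called difference, 72 were called in all 9 of these fits, and the other 9 (Pmaip1, Mmp9, Map3k14, Bub1b, Il6, Maff, Nr4a2, Mreg and Tbc1d4) are given there. Of the others named, the difference was called in at least 1 of these fits for Birc3, Tnf, Tnfsf9 and Anxa3, given there, and for Clec9a (adjusted p = 0.013 without FL culture 91 and 0.042 without DMSO library 3 of the GM cultures). With 0.5 and 1 µM in GM cultures it was called for Tnf, Tnfsf4, Ccr7 and Bcl2l1. DESeq2 called 81 of the 81, limma-voom 76, the 24-library model 70 and the model without the block 12.

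Signs changed as follows, in log2 units. With 1 µM in GM cultures the difference was 0.25 for Pbk, 0.26 for Bub1b, -0.44 for Cd40, -0.22 for Nfkb2, -0.012 for Nfkbia, -0.16 for Irf8, -0.19 for Cd70, -0.14 for Tnfsf9 and -0.031 for Xiap. With 0.5 µM it was -0.33 for Cd40, -0.073 for Nfkb2 and -0.17 for Xiap. Without the block it was -0.11 for Cd40 and -0.10 for Nfkb2. With a culture or library left out it ranged from -0.13 to 0.37 for Cd40, -0.070 to 0.29 for Nfkb2, -0.17 to 0.20 for Tnfaip3 and -0.16 to 0.21 for Xiap. Except for Pbk and Bub1b, none of these differences was called. The causes were not tested.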
